A study of Mus musculus with 8 samples.

Results

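The genes described here are 7 genes of sterol synthesis and of its control by SREBP2: Hmgcs1, Idi1, Fdft1, Sqle, Cyp51, Srebf2 and Insig1. They were taken by gene symbol from the 17700 genes counted in mouse cerebellum, and all 7 passed the filter on low counts, which kept 14191 genes. RNA came from the cerebellum of 8 C57BL/6JN mice, each a library of its own. The old group held old 1 (male, 93 weeks), old 2 (female, 83 weeks), old 3 (male, 83 weeks) and old 4 (female, 102 weeks). The young group held young 1 (male, 19 weeks), young 2 (male, 19 weeks), young 3 (female, 19 weeks) and young 4 (female, 22 weeks). No treatment or engineered allele is given for either group, and ribosomal RNA was depleted from total RNA before library preparation. Library totals were 6132312 to 6784584 counts in old mice and 6079485 to 7236720 counts in young mice. The series' design text speaks of liver and of other ages, and the sample labels were followed for all of these. Gabra6, a GABA receptor subunit of cerebellar granule neurons, stood at 401 to 566 CPM (counts scaled to a common library total) in old mice and 421 to 758 in young mice. Pcp2, a Purkinje cell gene, stood at 144 to 194 CPM in old mice and 137 to 153 in young mice. Alb, the hepatocyte gene for albumin, stood at 0.323 to 31.1 CPM in old mice and at 0 to 8.43 in young mice.

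Cells build cholesterol from acetyl-CoA through mevalonate, isoprenoid units, squalene and lanosterol. Hmgcs1 encodes HMG-CoA synthase, an early cytosolic step of that route, and Idi1 encodes the isomerase that readies isoprenoid units for joining. Fdft1 encodes squalene synthase, the first step committed to sterols, Sqle encodes squalene epoxidase, and Cyp51 encodes the lanosterol demethylase. Srebf2 encodes SREBP2, a transcription factor held in the endoplasmic reticulum membrane and released by cleavage in the Golgi when sterols are low. It then binds sterol regulatory elements, often beside sites of the factor NF-Y, in the promoters of the enzyme genes. Insig1 encodes a membrane protein that holds SREBP2 and its escort SCAP in the endoplasmic reticulum when sterols are plentiful, and it is itself a target of SREBP2. Little cholesterol crosses the blood-brain barrier, so the brain makes its own, much of it for myelin and, in adults, mainly in glia.

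The promoters of 3 of the genes, Hmgcs1, Cyp51 and Srebf2, are shown because each holds letters close to the sterol regulatory element. Hmgcs1 and Cyp51 also moved closely together across mice, as described further on. The pairs of Srebf2 with them, at r = 0.81 for Hmgcs1 and r = 0.72 for Cyp51, did not pass the adjusted test. A promoter window here is the 250 bases before the RefSeq start of a gene (GRCm38.p6). RefSeq sequences were matched for 5 of the 7 genes: Hmgcs1, Idi1, Cyp51, Srebf2 and Insig1. Of each window, the bases before the first base of the gene in GENCODE M21 are printed, 5′ to 3′ on the gene's strand. Capitals mark TCACNCCAC (the core of the sterol regulatory element), its looser form TCACCNCA and CCAAT (the NF-Y box, ATTGG where it lies on the other strand), each searched on both strands. The printed bases are chr13:119690101-119690350 (plus strand, the whole window) for Hmgcs1, chr5:4104747-4104947 (minus strand) for Cyp51 and chr15:82147019-82147180 (plus strand) for Srebf2, which is 201 bases of the Cyp51 window and 162 bases of the Srebf2 window.
Hmgcs1: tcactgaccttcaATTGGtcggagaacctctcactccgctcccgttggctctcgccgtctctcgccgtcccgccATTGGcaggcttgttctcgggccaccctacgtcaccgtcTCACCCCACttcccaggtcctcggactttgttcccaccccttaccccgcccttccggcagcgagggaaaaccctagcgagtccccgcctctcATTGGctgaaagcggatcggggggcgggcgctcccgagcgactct
Cyp51: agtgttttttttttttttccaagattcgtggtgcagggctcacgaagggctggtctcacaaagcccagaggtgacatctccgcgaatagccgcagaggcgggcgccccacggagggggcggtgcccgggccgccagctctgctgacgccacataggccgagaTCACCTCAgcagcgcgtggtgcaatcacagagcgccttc
Srebf2: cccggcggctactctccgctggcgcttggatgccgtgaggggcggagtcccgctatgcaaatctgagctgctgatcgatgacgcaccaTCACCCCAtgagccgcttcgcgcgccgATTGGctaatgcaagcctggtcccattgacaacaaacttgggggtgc

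The full core TCACNCCAC stood in the Hmgcs1 window, starting at position -137 from the RefSeq start, and in no other of the 5 windows. Among all 32851 promoter windows of 250 bases, 1.05% held it, and of the 14 other sterol synthesis enzymes with a RefSeq window 0 did. The related pattern TCACCNCA was added after the sequences had been seen. It fixes a C where the core allows any base, and allows any base where the core has a C. It overlapped the core in Hmgcs1, began at position -88 in Cyp51 and at -162 in Srebf2, and stood in 3.61% of all windows and in 1 of the 14 other enzymes. The shorter form CACNCCAC, which lies inside the full core, stood in the windows of Hmgcs1 and Insig1, in 1 of the 14 other enzymes and in 5.29% of all windows. CCAAT stood in 5 of 5 windows of the genes described and in 13 of 14 other enzymes, against 33.8% of all windows. In Cyp51 its CCAAT lay at position -29, beyond the printed bases. These are matches of letters and were not tested as binding sites.

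Hmgcs1 and Insig1 were the most abundant of the 7 genes and Idi1 the least. Levels are compared between genes as CPM per kilobase of exon, averaged over the 8 mice. Hmgcs1 averaged 34.4 ± 9.13 and Insig1 33.1 ± 5.20 on this scale (SD, n = 8). Hmgcs1 lay above Insig1 in 3 of the 8 mice, so these neighbours did not differ beyond their spread. Cyp51 followed at 19.0 ± 3.71, Srebf2 at 14.2 ± 1.65, Sqle at 7.54 ± 1.90, Fdft1 at 3.36 ± 0.561 and Idi1 at 1.22 ± 0.243 (SD, n = 8 each). Each of the steps from Insig1 down to Idi1 kept its order in 8 of 8 mice. Some reads can be shared with other genes: of the 50-base stretches of the longest transcript, 30.5% in Idi1 and 30.7% in Fdft1 also stood in transcripts of other annotated genes, so the levels of these genes are uncertain. For Fdft1 these were the overlapping gene Ctsb on the opposite strand and an unnamed gene model. The share was 13.6% in Hmgcs1, all of it an opposite-strand gene model, and below 4% in the other 4 genes.

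The question put to the age groups is whether the sterol genes stood at a different level in old cerebellum. The 7 genes each had a lower mean in old mice than in young mice, and none passed the test. Values below are CPM after TMM scaling, with old 1 to old 4 in that order, then young 1 to young 4. Fold changes are old over young on the log2 scale with their standard errors from edgeR's quasi-likelihood test with sex in the model, and adjusted p-values are by Benjamini-Hochberg over all 14191 genes.

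Hmgcs1 stood at 174, 118, 112 and 137 CPM in old mice, against 194, 224, 185 and 120.2 CPM in young mice. Old 1 reached up towards the young mice and young 4 lay among the old mice, so the groups overlapped. The means were 135 ± 28.0 CPM in old mice and 181 ± 43.9 CPM in young mice (SD, n = 4 each), a log2 fold change of -0.41 ± 0.17 (edgeR, unadjusted p = 0.043, adjusted p = 0.437). Idi1 stood at 4.17, 3.89, 3.30 and 2.998 CPM in old mice, against 5.27, 5.33, 4.60 and 4.63 CPM in young mice. It was the only one of the 7 genes whose groups did not overlap, with the 4 old mice below the 4 young mice. Over all tested genes, 3.42% had old mice wholly below young mice, 3.15% had them wholly above, and 6.57% had no overlap either way. The Idi1 means were 3.59 ± 0.535 CPM in old mice and 4.96 ± 0.397 CPM in young mice (SD, n = 4 each), and the log2 fold change was -0.46 ± 0.21 (edgeR, unadjusted p = 0.0476, adjusted p = 0.446). Idi1 was also the most thinly counted gene, with 19 to 27 reads per old library and 27 to 34 per young library. Its summed count was 93 in old mice (95% exact Poisson interval 75.1 to 114, counting error only) and 128 in young mice (107 to 152).

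Fdft1 stood at 14.0, 13.8, 13.4 and 12.2 CPM in old mice, against 17.5, 17.1, 15.3 and 10.5 CPM in young mice. Young 4 was the lowest of all 8 mice for this gene, while the other 3 young mice lay above every old mouse. The log2 fold change was -0.17 ± 0.15 (edgeR, adjusted p = 0.741). Sqle stood at 44.8, 34.8, 28.1 and 40.2 CPM in old mice, against 54.3, 57.1, 45.0 and 30.2 CPM in young mice. Again 3 young mice lay above every old mouse and young 4 lay low, with only old 3 below it. The log2 fold change was -0.31 ± 0.19 (edgeR, adjusted p = 0.595). Cyp51 stood at 85.4, 71.4, 70.1 and 76.2 CPM in old mice, against 92.1, 115, 95.4 and 66.5 CPM in young mice. Young 4 was again the lowest mouse and young 2 the highest, and the log2 fold change was -0.27 ± 0.13 (edgeR, unadjusted p = 0.0598, adjusted p = 0.475).

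**Figure D1:**
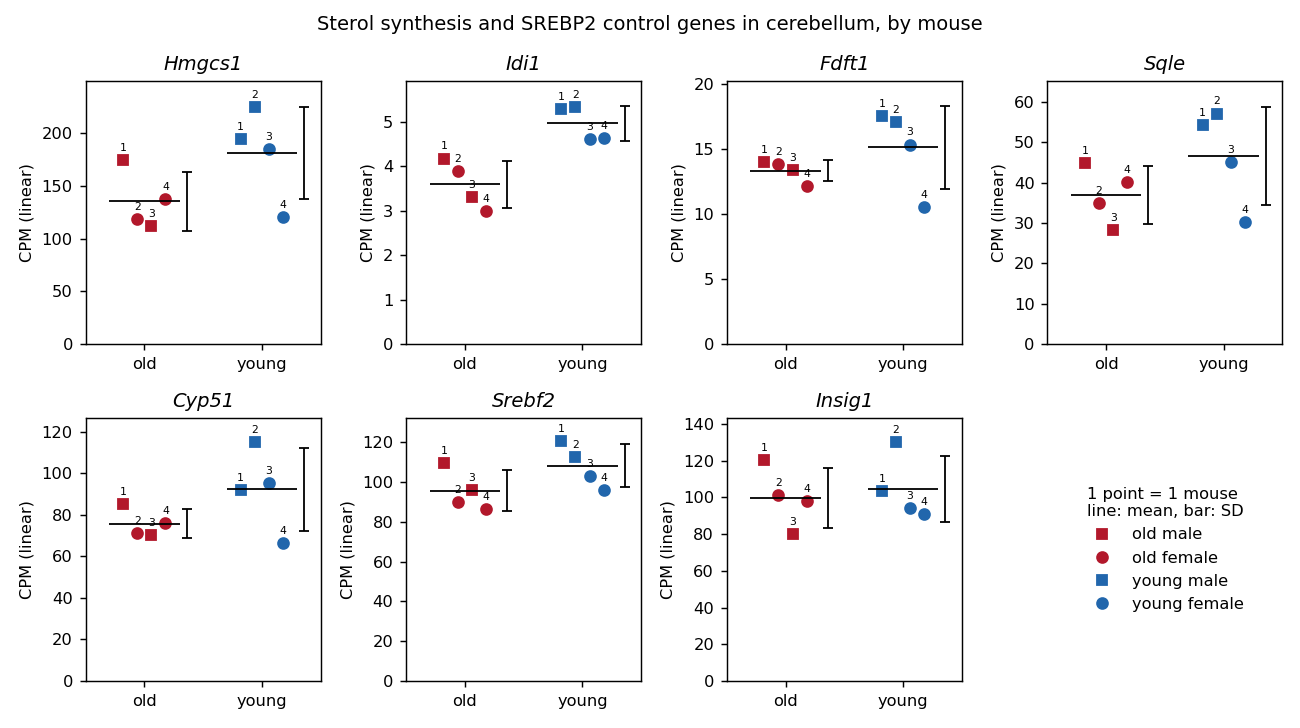
Level of each of the 7 genes by mouse in CPM on a linear axis that starts at 0, old mice on the left and young mice on the right of each panel; numbers name the mice, squares are males, circles are females, lines are means and bars are SD (n = 4 per group). Idi1 is the only panel whose groups do not overlap, and young 4 lies among or below the old mice in each of the other panels.

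Among the control genes, Srebf2 stood at 109.7, 89.9, 96.2 and 86.3 CPM in old mice, against 121, 113, 103 and 96.1 CPM in young mice. Old 1 lay above young 3 and young 4, and old 3 lay just above young 4, so the groups overlapped. The log2 fold change of Srebf2 was small and its error the smallest of the 7 genes, -0.18 ± 0.08 (edgeR, unadjusted p = 0.0362, adjusted p = 0.416). Insig1 stood at 120.2, 101, 80.2 and 97.8 CPM in old mice, against 103, 130.3, 94.2 and 90.9 CPM in young mice. The groups were interleaved, with old 3 the lowest mouse and young 2 the highest. Its log2 fold change was -0.06 ± 0.13 (edgeR, adjusted p = 0.904).

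Against age, then, 0 of 7 genes passed the adjusted threshold of 0.05 in either direction, beside 0.12% of all tested genes (0.0211% lower and 0.0987% higher). At an unadjusted p under 0.05, 3 of the 7 genes (Hmgcs1, Idi1 and Srebf2) were lower in old mice and 0 were higher, and over all genes 5.76% were lower and 5.25% higher. DESeq2 put 0 of the 7 past its adjusted threshold and 1 under an unadjusted p of 0.05. All 7 log2 fold changes were below 0, as were 51.4% of those of all genes (48.6% were above 0), and the median was -0.27 over the 7 genes and -0.01 over all genes. The 7 genes share the same 8 libraries and varied together, so their shared direction does not count as 7 separate observations. By the same fit, cell type markers had log2 fold changes below 0 for 13 of 14 granule neuron genes (median -0.16), 14 of 15 Purkinje cell genes (-0.14), 13 of 15 astrocyte and Bergmann glia genes (-0.14, 1 past the threshold) and 11 of 14 oligodendrocyte genes (-0.17), and above 0 for 14 of 14 microglial genes (0.77). Log2 fold changes were also above 0 for 14 of 14 choroid plexus genes (1.25), 5 of 5 tested hepatocyte genes (1.95) and 9 of 12 endothelial genes (0.26). They were below 0 for 5 of 8 oligodendrocyte precursor genes (-0.10). Apart from the 1 astrocyte and Bergmann glia gene, 0 genes of these marker lists passed the threshold. The part of the cell types in the result was tested only through the covariate fits given here and further on. In tissue RNA, fewer cells of a type and less RNA per cell cannot be told apart. With the granule neuron marker score of each library added to the model, 2 of the 7 genes passed: Hmgcs1 at -0.59 ± 0.10 (adjusted p = 0.0259) and Cyp51 at -0.41 ± 0.08 (adjusted p = 0.0347). In that fit 0.846% of all genes passed (120 of 14191), against 17 genes without the score. The median over the 7 genes was -0.14 without old 3 and -0.40 without young 4, and Insig1 turned to 0.08 without old 3 and to 0.04 without young 2.

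**Figure D2:**
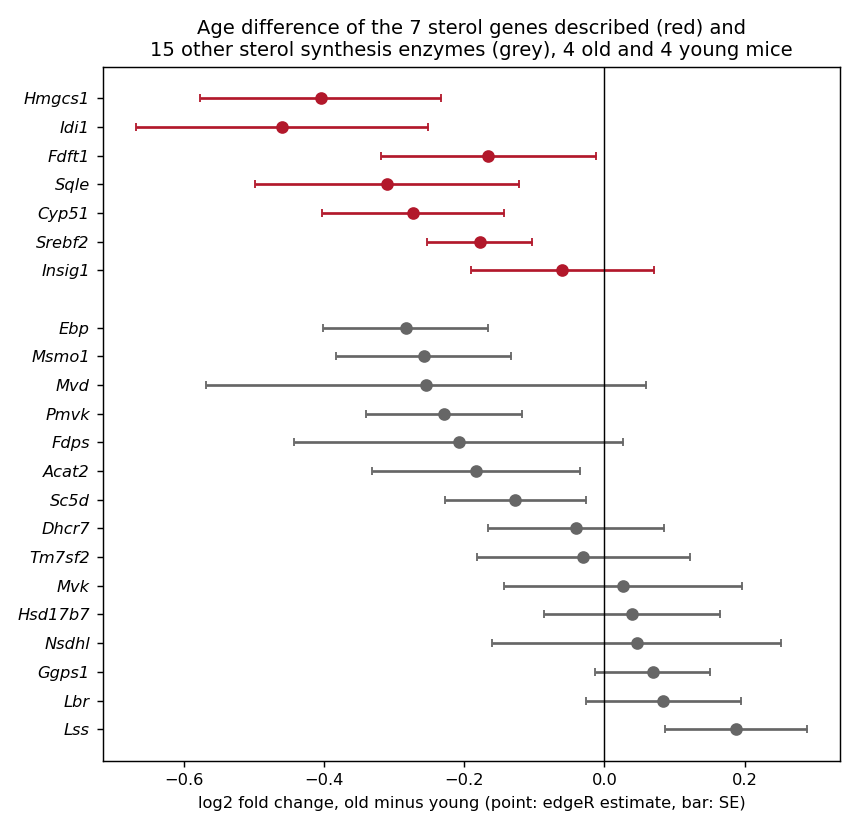
Log2 fold change, old minus young, of the 7 genes described (red, upper block) and of 15 of the 17 other sterol synthesis enzymes (grey, lower block), with standard errors from edgeR (4 old and 4 young mice). The 7 red points lie between -0.46 for Idi1 and -0.06 for Insig1, and 9 of the 15 grey points lie below 0.

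Old males lay below young males for more of the genes than old females lay below young females, and the test of that difference called none of the 7. Among males, both old mice lay below both young mice for 6 of 7 genes, all but Insig1, where 16.0% of all genes had this order. Among females, both old mice lay below both young mice for Idi1 and Srebf2, 2 of 7 genes, where 20.1% of all genes had it. Sqle averaged 36.5 CPM in old males and 55.7 CPM in young males, while it averaged 37.5 CPM in old females and 37.6 CPM in young females. Fdft1 averaged 13.7 CPM in old males and 17.3 CPM in young males, against 13.0 CPM in old females and 12.9 CPM in young females. The age difference in females minus that in males was above 0 for 7 of 7 genes, as for 48.0% of all genes (52.0% were below 0), with a median of 0.29. It was highest in Sqle at 0.62 ± 0.33 (edgeR interaction, unadjusted p = 0.0948, adjusted p = 0.9999), and 0 of 7 genes passed. With 1 library left out, the Sqle value ran from 0.32 without old 3 to 0.99 without old 1, and it was 0.35 without young 4. The Hmgcs1 value, 0.29 with all mice, ran from 0.0098 without old 3 to 0.65 without old 1, and it was 0.012 without young 4. No gene of the 14191 passed this test by edgeR (0.0%; at an unadjusted p under 0.05, 1.52% were higher and 0.775% lower), and DESeq2 called 1. The same difference was above 0 for 14 of 14 oligodendrocyte markers (median 0.47) and below 0 for 14 of 14 granule neuron markers (median -0.30), with 0 of either list past the threshold. It was also above 0 for 14 of 14 choroid plexus markers (median 4.55), 14 of 14 microglial markers (0.52) and 11 of 12 endothelial markers (0.50), and below 0 for 15 of 15 Purkinje cell markers (-0.26). Their part in the result was not tested.

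Between sexes, the 7 genes were lower on average in females than in males, and again none passed. Srebf2 averaged 93.9 ± 7.37 CPM in females and 109.8 ± 10.2 CPM in males (SD, n = 4 each), a log2 fold change, female minus male, of -0.23 ± 0.08 (edgeR, unadjusted p = 0.0111, adjusted p = 0.930). Hmgcs1 averaged 140.2 ± 31.2 CPM in females and 176 ± 47.6 CPM in males, at -0.31 ± 0.17 (edgeR, adjusted p = 0.930). Fold changes of the other 5 genes ran from -0.28 in Sqle to -0.16 in Idi1. With 1 library left out, all 7 stayed below 0, and Srebf2 kept within -0.26 to -0.19. Values nearest 0 came without young 4 for Sqle (-0.10), Hmgcs1 (-0.17) and Fdft1 (-0.11), and without young 2 for Insig1 (-0.069). The lowest values of Sqle (-0.45), Hmgcs1 (-0.45) and Insig1 (-0.31) came without old 3, and that of Fdft1 (-0.34) without old 2. All 7 were below 0, against 47.1% of all genes (52.9% were above 0), with a median of -0.23 over the 7 and 0.01 over all genes. The count past the threshold was 0 of 7, beside 0.0423% of all genes (0.0141% higher and 0.0282% lower in females). At an unadjusted p under 0.05, 1 of 7 was lower in females, beside 2.14% of all genes, and 0 of 7 were higher, beside 2.62%. In young mice, both females lay below both males for 6 of 7 genes, an order that 15.2% of all genes had. In old mice it held for 1 of 7 genes, Srebf2, and for 13.4% of all genes.

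The order of the mice was similar for the 7 genes. The mean deviation of the 7 genes from their own means in log2 units was 0.10 for old 1, -0.16 for old 2, -0.29 for old 3 and -0.17 for old 4, against 0.26 for young 1, 0.37 for young 2, 0.11 for young 3 and -0.23 for young 4. In young 1 and young 2, 7 of 7 genes stood above their own mean over the 8 mice. In old 2, old 3 and old 4, 0 of 7 did. Insig1 was practically at its mean in old 2, at -0.0004, and close to it in young 1, at 0.029. The exceptions to the order by age were old 1, with 5 of 7 genes above their mean, and young 4, with 1 of 7. Young 2 was the highest mouse for 5 of the genes and young 1 for 2, while the lowest was old 3 for 3 genes, old 4 for 2 and young 4 for 2.

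Markers of oligodendrocytes, the myelin-forming cells, and of their precursors moved with part of this order. The oligodendrocyte score, the median log2 deviation of 14 marker genes, was 0.06, -0.07, -0.34 and 0.16 in the old mice in order, against -0.07, 0.40, 0.20 and -0.35 in the young mice. Young 2 was thus highest, and old 3 and young 4 lowest, for these markers too, while old 4 and young 1 departed from the sterol genes. The score of 8 oligodendrocyte precursor markers was 0.03, -0.17, -0.24 and 0.18 in the old mice in order, against 0.18, 0.33, 0.14 and -0.28 in the young mice. It had the sign of the sterol genes' mean deviation in each mouse but old 4. These markers summed to 241 to 330 CPM in old mice and 225 to 342 CPM in young mice, with none at 0. The oligodendrocyte markers' summed level ran from 4365 to 5953 CPM in old mice and from 4018 to 6776 CPM in young mice, with no marker at 0. The score of 14 granule neuron markers was -0.15, -0.00, 0.12 and -0.33 in the old mice in order, against 0.26, -0.21, -0.06 and 0.38 in the young mice. Their sum ran from 5446 to 7278 CPM in old mice and from 5748 to 8713 CPM in young mice, again with none at 0. With the oligodendrocyte score in the model, 0 of the 7 genes passed, 7 of 7 stayed below 0, and their median age difference was -0.19. The smallest adjusted p among the 7 was 0.0538 (edgeR), in a fit where 2.65% of all genes passed (376 of 14191). With the astrocyte and Bergmann glia score 0 of 7 passed, beside 30 of 14191 genes, and the median was -0.17. With the choroid plexus score 0 of 7 passed, beside 0 of 14191 genes, and the median was -0.35. Both of these fits had 7 of 7 below 0. Hepatocyte markers, which cerebellum should lack, summed to 2.91 to 86.2 CPM in old mice and 0.658 to 20.9 CPM in young mice, with up to 1 of 7 markers at 0 in an old mouse and up to 5 of 7 in a young mouse. Choroid plexus markers summed to 111 to 1803 CPM in old mice and 87.5 to 775 CPM in young mice, with up to 1 of 14 at 0 in a young mouse. Without old 2, old 3 and young 4, which had the 3 highest hepatocyte scores, 0 of the 7 genes passed, 6 of 7 were below 0 and the median was -0.30. Of all genes, 184 of 14404 passed there. The part of these cell types in the order of the mice was not tested beyond these fits.

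**Figure D3:**
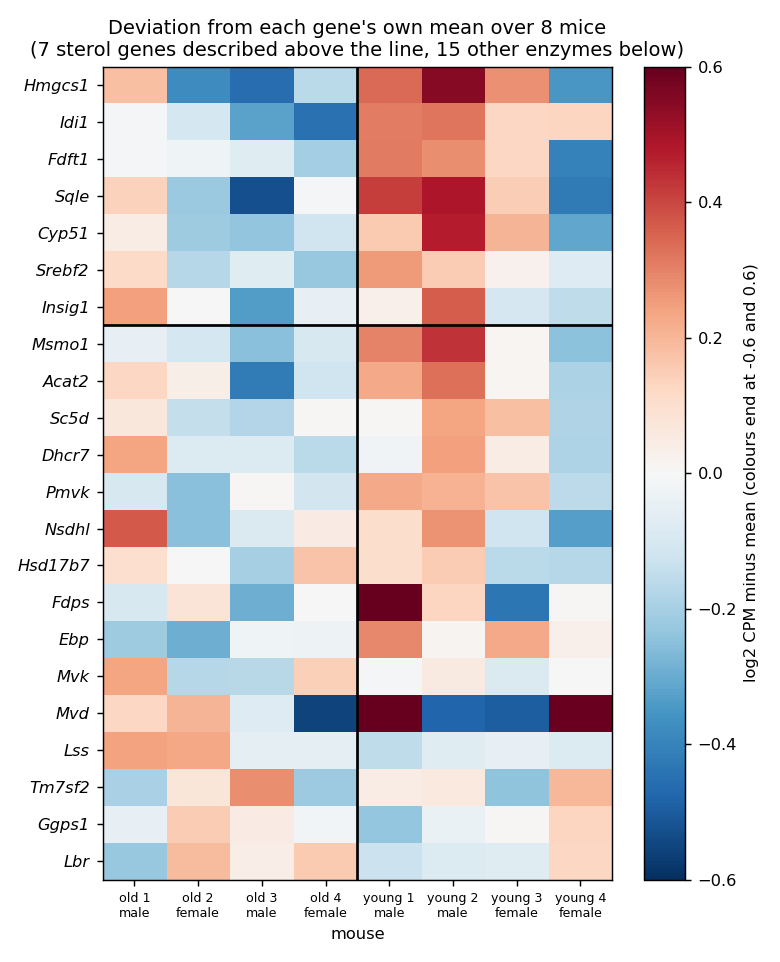
Deviation of log2 CPM from each gene's own mean over the 8 mice, for the 7 genes described (above the line) and 15 of the 17 other sterol synthesis enzymes (below it, ordered by likeness), old mice on the left and young mice on the right. The 7 genes are all above their mean in young 1 and young 2, and all below it in old 2, old 3 and old 4, with Insig1 practically at its mean in old 2.

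Counting error was small beside the spread between mice for the well-counted genes. For Hmgcs1 the coefficient of variation that counting alone gives was 3.42% in old mice and 2.98% in young mice, while the measured one was 20.7% in old mice and 24.2% in young mice. For Sqle counting gave 6.54% in old mice and 5.89% in young mice, while 19.4% was measured in old mice and 26.0% in young mice. For Idi1 the spread was no larger than counting error, which gave 20.9% in old mice and 17.7% in young mice against measured values of 14.9% in old mice and 8.01% in young mice. The same held for Fdft1 in old mice, with 10.8% by counting and 6.16% measured. In young mice Fdft1 had 10.3% by counting and 21.2% measured.

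Hmgcs1, Sqle and Cyp51 moved most closely together from mouse to mouse. Over the 8 mice, all 21 pairs of the 7 genes had a positive Pearson correlation of log2 CPM, from 0.51 for Idi1 with Insig1 to 0.96 for Hmgcs1 with Cyp51. The median r of each of the 7 with all other tested genes ran from -0.07 for Insig1 to -0.01 for Idi1. The lowest pair did not stand out, since 14.0% of all genes correlated with Idi1, and 13.4% with Insig1, at least as highly. After Benjamini-Hochberg adjustment over the 21 pairs, 4 passed the exact two-sided permutation test. Hmgcs1 and Sqle had r = 0.96 (exact permutation p = 7.44e-05, adjusted p = 0.00156) and Spearman's rho = 0.98 (exact permutation p = 0.000397, adjusted p = 0.00833). Hmgcs1 and Cyp51 had r = 0.96 (exact permutation p = 0.000298, adjusted p = 0.00312) and rho = 0.90 (exact permutation p = 0.00456, adjusted p = 0.0319). Of all other tested genes, 0.0987% correlated with Hmgcs1 at least as highly as Cyp51 did, and 0.141% at least as highly as Sqle did.

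Sqle and Cyp51 had r = 0.92 (exact permutation p = 0.00112, adjusted p = 0.00781) and rho = 0.95 (exact permutation p = 0.00114, adjusted p = 0.0120). At least as high an r was reached by 0.543% of all other tested genes with Sqle and by 0.409% with Cyp51. Fdft1 and Cyp51 had r = 0.84 (exact permutation p = 0.0095, adjusted p = 0.0499) and rho = 0.86 (exact permutation p = 0.0107, adjusted p = 0.0375). For this pair the shares were 0.43% with Fdft1 and 2.18% with Cyp51. These 4 pairs are thus all pairs of enzymes, and no pair with Srebf2, Insig1 or Idi1 passed on r. On rho, Fdft1 with Sqle and Fdft1 with Srebf2 passed too, each at 0.86 (exact permutation, adjusted p = 0.0375). Without the 2 mice farthest from the median of the first gene, r was 0.93 for Hmgcs1 with Sqle, 0.97 for Hmgcs1 with Cyp51, 0.90 for Sqle with Cyp51 and 0.87 for Fdft1 with Cyp51. With 6 mice left, 0 of the 21 pairs passed the adjusted test. On residuals after age and sex, the 2 Hmgcs1 pairs passed. They had r = 0.95 with Sqle (permutation, adjusted p = 0.0458) and r = 0.93 with Cyp51 (permutation, adjusted p = 0.0422). The Sqle and Cyp51 pair had r = 0.87 on residuals (permutation, adjusted p = 0.0627), and Fdft1 with Cyp51 had 0.75 (permutation, adjusted p = 0.102). Residuals are not freely exchangeable between mice, so these p-values on residuals are approximate and can be too small.

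Srebf2 ran closest to Idi1 and Hmgcs1, each at r = 0.81, with adjusted p-values of 0.0518 for Idi1 and 0.0542 for Hmgcs1 in the exact permutation test. Insig1 ran closest to Sqle at r = 0.79 (exact permutation, adjusted p = 0.0518). Against the mean of the other 6 genes, r was 0.96 for Hmgcs1, 0.92 for Sqle, 0.92 for Cyp51, 0.82 for Srebf2, 0.80 for Fdft1, 0.71 for Idi1 and 0.70 for Insig1. These last values are descriptions over 8 mice that share their libraries and scaling.

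**Figure D4:**
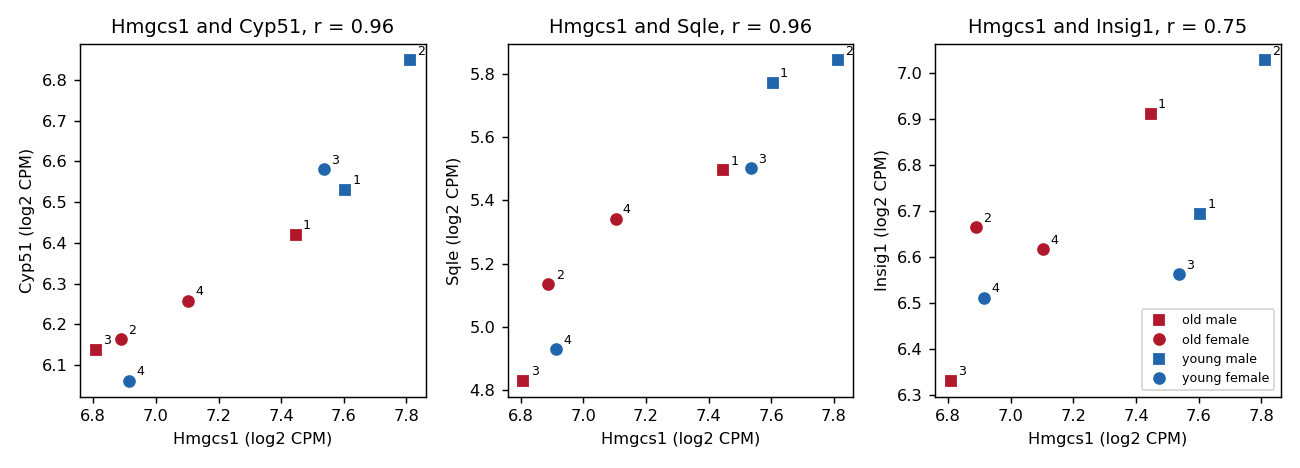
Level of Cyp51, Sqle and Insig1 (vertical axes) against Hmgcs1 (horizontal axis), in log2 CPM, for 8 mice; red is old, blue is young, squares are males, circles are females and numbers name the mice. Cyp51 and Sqle follow Hmgcs1 with r = 0.96 each, and Insig1 follows it with r = 0.75.

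Among the 17 other sterol synthesis enzymes, 0 passed for age, beside 0.12% of all genes, and 11 of 17 were below 0 with a median log2 fold change of -0.13. The smallest p belonged to Ebp, the sterol isomerase late in the route, at 20.5, 19.4, 23.4 and 23.4 CPM in old mice against 29.2, 24.1, 28.0 and 24.4 CPM in young mice. Its old mice lay wholly below its young mice, as for 3.42% of all genes, and the log2 fold change was -0.28 ± 0.12 (edgeR, unadjusted p = 0.033, adjusted p = 0.404). Msmo1, the sterol methyl oxidase that acts after Cyp51, had -0.26 ± 0.12 and Pmvk, phosphomevalonate kinase, -0.23 ± 0.11. Lss, lanosterol synthase, differed in sign at 0.19 ± 0.10 (edgeR, adjusted p = 0.538), and Sc5d, a late desaturase, had -0.13 ± 0.10.

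Of the 10 other genes of SREBP2 control, 0 passed for age, 5 were below 0 and the median was -0.02. Scap, the escort of SREBP2 to the Golgi, stood at 58.2, 59.7, 62.3 and 64.7 CPM in old mice, against 76.0, 68.2, 72.4 and 65.0 CPM in young mice. Old mice lay wholly below young mice, as for 3.42% of all genes, by a narrow margin between old 4 and young 4. The log2 fold change was -0.20 ± 0.08 (edgeR, unadjusted p = 0.033, adjusted p = 0.404). Rnf139, a ubiquitin ligase of the endoplasmic reticulum membrane, had 0.17 ± 0.09, Mbtps2, a protease that cleaves SREBPs, 0.16 ± 0.10, and Rnf145, another ligase, -0.08 ± 0.07. Of the 4 tested SREBP2 targets in uptake and transport (of 5 listed), 0 passed, 3 were below 0 and the median was -0.12. Stard4, a sterol carrier, had -0.13 ± 0.08 and Tmem97, a regulator of cholesterol trafficking, -0.12 ± 0.21.

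Of the 16 tested genes of cholesterol export, turnover and LXR signalling (of 17 listed), 0 passed, 8 were below 0 and the median was 0.02. Lipa, the lysosomal acid lipase, had 0.60 ± 0.16 (edgeR, unadjusted p = 0.00252, adjusted p = 0.191) and Abca1, an exporter of cholesterol, 0.31 ± 0.09 (edgeR, unadjusted p = 0.00403, adjusted p = 0.216). Old mice lay wholly above young mice for both genes, as for 3.15% of all genes. For Lipa the margin was narrow, with 19.97 CPM in the lowest old mouse and 19.91 CPM in the highest young mouse. With the oligodendrocyte score in the model both passed, Lipa at 0.67 (adjusted p = 0.0115) and Abca1 at 0.34 (adjusted p = 0.0257), in a fit where 2.65% of all genes passed (376 of 14191). Microglial markers, whose cells are rich in lysosomes, summed to 242 to 505 CPM in old mice and 153 to 196 CPM in young mice, and their part in these values was not tested. Cyp46a1, the neuronal enzyme that turns cholesterol over, had -0.37 ± 0.17, and Abcg4, another exporter, -0.17 ± 0.09. Of the 12 genes of fatty acid synthesis, controlled largely by SREBP1, 0 passed, 9 were below 0 and the median was -0.11. Fads2, a fatty acid desaturase, had -0.32 ± 0.10 (edgeR, unadjusted p = 0.010, adjusted p = 0.277) and passed with the granule neuron score in the model at -0.42 (adjusted p = 0.0259), where 0.846% of all genes did. Elovl6, an elongase, had -0.17 ± 0.07, Fasn, the fatty acid synthase, -0.22 ± 0.10, and Fads1, another desaturase, -0.17 ± 0.12. Abcg4 and Elovl6 had old mice wholly below young mice, as had 3.42% of all genes.

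The pattern of the 7 genes over the mice was shared by some lipid enzymes and not by others. The correlation of each gene with the mean standardized log2 CPM of the 7 genes is a description over 8 mice that share library and scaling, with no test. At r of at least 0.8 stood 3.23% of all tested genes, where the median r was -0.04. Of the 17 other sterol enzymes, 5 did so, or 29.4%, among them Msmo1 at 0.94, Acat2, the first thiolase step, at 0.91 and Sc5d at 0.83. Their median was 0.52. Enzymes on the other side included Lbr, a sterol reductase that is also a nuclear lamina protein, at -0.76, Ggps1, which makes the isoprenoid for protein prenylation, at -0.71 and Tm7sf2 at -0.30.

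Of the 12 genes of fatty acid synthesis, 4 reached 0.8, or 33.3%: Fasn at 0.94, Fads2 at 0.89, Acly, which supplies cytosolic acetyl-CoA, at 0.82 and Scd1, a desaturase, at 0.82. None of the 10 other SREBP2 control genes did, with a median of -0.07 and Scap at 0.53, nor any of the 16 genes of export and turnover, with a median of 0.01. The 4 SREBP2 targets ran from -0.73 to 0.71 with a median of 0.53, and Stard4 stood at 0.66. Outside these lists, the genes most like the 7 in pattern were Cask at r = 0.976, Dync1li2 at 0.969, Ptprt at 0.963, Sorcs2 at 0.959, Tcaf1 at 0.954 and Sox4 at 0.953.

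**Figure D5:**
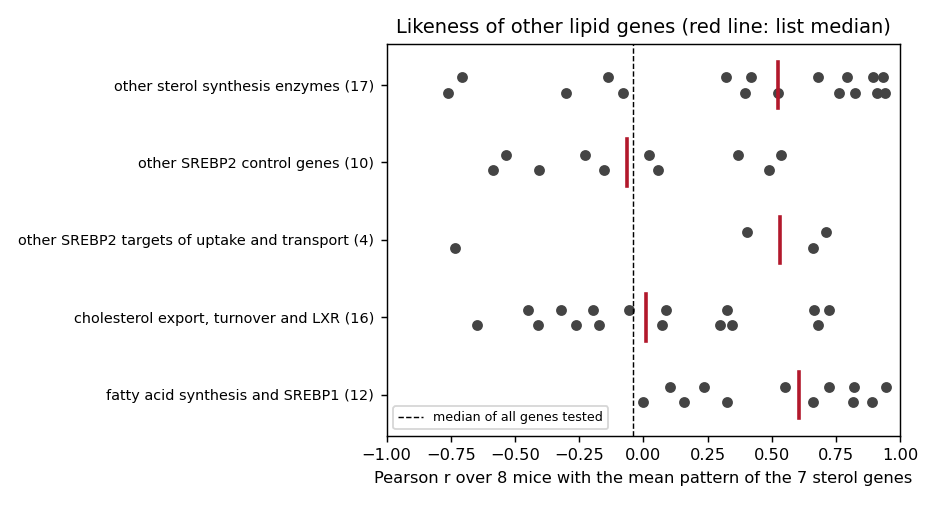
Pearson r over 8 mice of each tested gene of 5 lipid gene lists with the mean pattern of the 7 genes described; each point is a gene, red lines are list medians and the dashed line is the median of all tested genes. The other sterol synthesis enzymes and the fatty acid genes have medians of 0.52 and 0.61, while the other SREBP2 control genes have -0.07.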

How the data were processed

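RNA of 8 cerebella was measured, 4 old and 4 young, 2 males and 2 females of each age; tissue, age and sex were read from the sample labels. The deposited tables hold the authors' raw read counts for each gene, per the file headers; they were not scaled. The submitters' processing notes name STAR 2.7.5b and featureCounts, beside Trimmomatic 0.39, bcl2fastq 2.20.0, SAMtools 1.10, FastQC 0.11.9, deepTools 3.5.0 and Picard 2.20.8, with builds GRCm38 and mm10. For the annotation, strand setting and multiply mapped reads, the choice is not given in the sources used here; genes that overlap or are near copies can share reads. In 7 of 8 tables dates stood in place of 24 gene names; tables were joined by row.

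Totals were 6079485 to 7236720 counts per library, and every pair of libraries within an age group differed by more than sampling noise. The design text counts the samples of a group as biological replicates. Genes were kept by filterByExpr (minimum 10 counts) over the 4 cells of age and sex. Quasi-likelihood tests were run in edgeR 4.0.16 under R 4.3.3, with TMM scaling, robust dispersions, and age and sex as terms, adjusted by Benjamini-Hochberg at 0.05; standard errors were derived from the F statistic and the log2 fold change. The interaction was fitted on the 4 cells. Log2 CPM used a prior count of 2. Correlations used exact permutation over 8 mice (SciPy 1.17.1, NumPy 2.4.6 and Python 3.11.15). On residuals after age and sex this permutation is approximate. The tests were tested on simulated data first. Coordinates are from GENCODE M21 (GRCm38).

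Members and lists were chosen with earlier results of these data known. Of each pathway list, the genes named are those past the threshold and otherwise the 4 of smallest p (6 for the enzymes); a few genes this takes in are not reported here, nor drawn by name; genes named for their likeness to the pattern within a list were chosen after their values were seen. Outside the lists, the 6 tested genes of highest r with mean log2 CPM of at least 1 are named, leaving out unnamed gene models. Alternatives were other scalings, DESeq2 1.42.0, limma-voom (limma 3.58.1), other filters and dispersions, each library left out, no term for sex, a replicate block, age in weeks, 4 cell type scores as covariates, and leaving out old 2, old 3 and young 4 together.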

Additional observations from a re-analysis of the deposited data

Results flagged for a closer look

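None of the 7 sterol genes had a mouse that stood apart from its group by Dixon's test at the 95% level, which was run on 58 groups of 4 mice over the genes named. In 3 groups of other genes 1 mouse stood apart, and chance alone gives such a mouse in about 1 group in 20. Pmvk was low in young 4 at 20.6 CPM, where the other young mice had 25.9 to 27.0 CPM. Abca1 was high in old 4 at 139 CPM, where the other old mice had 115 to 117 CPM. Cyp46a1 was high in young 2 at 14.1 CPM, where the other young mice had 9.20 to 9.96 CPM.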

How the results depend on the processing

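The count of the 7 genes past the age threshold was 0 in 23 of 24 alternatives and 2 with granule neuron markers as a covariate. The log2 fold changes of Hmgcs1, Fdft1, Sqle, Cyp51 and Srebf2 stayed below 0 in 24 of 24 alternatives and that of Idi1 in 23 of 23, since Idi1 was not tested under the filter of 50 counts. Insig1 turned to 0.076 without old 3, to 0.042 without young 2 and to 0.045 without old 2, old 3 and young 4, and ranged from -0.15 to 0.076 with 1 library left out. The number of all genes past the age threshold, 17 here, was 38 with upper-quartile factors, 36 with library totals, 125 with DESeq2, 1 with limma-voom, 26 with the older dispersions, 103 with age in weeks, 120 with the granule neuron score, 30 with the astrocyte and Bergmann glia score, 376 with the oligodendrocyte score, 0 with the choroid plexus score and 184 without old 2, old 3 and young 4. With 1 library left out it ran from 0 to 63: 2 without old 1, 63 without old 2, 49 without old 3, 13 without old 4, 2 without young 1, 8 without young 2, and 0 without young 3 or without young 4. With the replicate number as a block 1 gene passed, and the smallest adjusted p among the 7 genes was 0.879 (edgeR). Deviations of same-numbered mice correlated at 0.16, -0.22, -0.05 and -0.25, within the -0.49 to 0.48 of differently numbered mice. So few values cannot settle whether same-numbered mice share more than a number. The block changed no call among the genes named. The count of fatty acid genes was 1 with the granule neuron score. The count of export and turnover genes was 2 with the oligodendrocyte score, 1 without old 2, old 3 and young 4, and 0 to 1 with 1 library left out. For sex, 4 to 46 genes passed with 1 library left out, against 6 with all, the highest without old 3. For the interaction 1 gene passed with DESeq2 and 0 to 2 with 1 library left out. Of the 4 correlated pairs, the count was 2 on residuals after age and sex, where p-values are approximate, and 0 without the 2 farthest mice. Other signs that turned were those of Tmem97 (0.037 without old 1, range -0.32 to 0.037), Fads1 (0.013 with the astrocyte and Bergmann glia score), the Idi1 interaction (-0.12 without old 2 and -0.070 without old 3, range -0.12 to 0.26) and the Srebf2 interaction (-0.027 without old 2, -0.087 without old 3, -0.037 without young 1 and -0.046 without young 4, range -0.087 to 0.10). The cause of these differences was not tested. Depth limits Idi1 most.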
